A study of Homo sapiens with 4 samples.

Results

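The enzymes that join glutathione, glucuronic acid or sulfate to drugs, hormones and toxins were examined in HT29 cells, a human line established from a colon adenocarcinoma. The members were all genes whose symbol marks a UDP-glucuronosyltransferase of family UGT1A, UGT2A or UGT2B, a cytosolic sulfotransferase of SULT1 or SULT2, a glutathione transferase of class alpha, mu, omega, theta, kappa, zeta or pi (GSTA to GSTP), or a microsomal glutathione transferase (MGST). The rule used names alone and no measured value. It found 50 gene identifiers, with 49 symbols because SULT1A3 has 2 identifiers, of the 53617 in the tables, and 290 of the 168036 transcript entries.

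The series set out to find mRNAs that respond to the microRNA miR-23b. Cells of passages 12 to 13 were given, by lipid transfection at 50 nM (the labels write "50nm"), a miR-23b precursor, an antimir, or the control of either; medium was changed at 24 h and RNA was taken at 48 h. A precursor raises a microRNA, and an antimir binds and blocks it. Each of the 4 groups held 1 library of this 1 cell line, so no difference computed here has a replicate check, an error or a p-value. The authors' own calls, named as such below, also set 1 library against 1.

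Conjugation makes a compound more soluble in water and marks it for export. Glutathione transferases attach the tripeptide glutathione to reactive compounds, UDP-glucuronosyltransferases in the endoplasmic reticulum attach glucuronic acid to steroids, bilirubin and many drugs, and sulfotransferases move sulfate from the donor PAPS to phenols and steroids. The gut wall is a known site of all of these reactions, and UGT1A8 and UGT1A10 are known as forms made in the gut rather than in the liver.

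Levels are given as FPKM, the authors' density of fragments along a transcript, adjusted for sequencing depth, summed over the isoforms of a gene. The depth behind each value is unknown, because the tables hold no counts. Summed over all genes, FPKM came to 2800520 and 2848010 in the precursor library and its control, and to 1463120 and 1545580 in the antimir library and its control. The tables of the 2 comparisons are treated as normalised separately, so a level in one table set beside a level in the other is not read as a measured change. A value of exactly 0 may be a failed estimate rather than absence, since GPX4, a glutathione peroxidase that cells generally use, was listed at 0 in all 4 libraries.

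The label of the cells was checked with marker genes. Of 15 colon epithelium markers, 2 were below 1 FPKM in all 4 libraries (CDH17 and CDX1), CDX2 was at 2.19 to 2.87, and EPCAM, an epithelial adhesion protein, was at 531 to 743. Of 12 hepatocyte markers, 9 were below 1 in all 4 libraries. ALB, which encodes albumin, was at 0.0153 FPKM after the precursor and listed at 0 in the other libraries. SERPINA1 from the same list was at 196 to 333. Of 10 leukocyte markers, 6 were below 1 in all libraries, with PTPRC at 0 or close to it, while LYZ, the lysozyme gene, was at 3354 to 3685. Summed FPKM stayed at or below 1.97 for the 8 fibroblast markers, at or below 0.751 for the 5 endothelial markers found and at or below 0.415 for the 4 erythroid markers.

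Because several of these genes are near copies of each other, the stretches that tell them apart are shown before the values. The 9 UGT1A genes share one locus (chromosome 2, 234526291 to 234681956 in hg19, the authors' build) and one set of last exons, and each has a first exon of its own. In the reference transcripts of GENCODE 29, the last 739 coding bases were the same in all 9, which is 46.4% of the 1593 coding bases of UGT1A10. The start of the coding sequence, in the first exon, separates them, as in the first 60 coding bases of the 4 most alike forms, where capitals mark a base that differs from UGT1A10:

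UGT1A10: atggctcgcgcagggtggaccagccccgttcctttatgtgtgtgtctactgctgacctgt

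UGT1A8: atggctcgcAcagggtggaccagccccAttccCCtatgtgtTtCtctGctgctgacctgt

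UGT1A9: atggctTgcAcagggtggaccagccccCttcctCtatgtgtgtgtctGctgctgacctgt

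UGT1A7: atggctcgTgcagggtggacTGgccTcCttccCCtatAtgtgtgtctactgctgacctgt

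These stretches lie on the plus strand of GRCh38 at chr2:233636523-233636582 for UGT1A10, chr2:233617708-233617767 for UGT1A8, chr2:233671935-233671994 for UGT1A9 and chr2:233681938-233681997 for UGT1A7. UGT1A8, UGT1A9 and UGT1A7 differ from UGT1A10 there at 7, 5 and 8 of 60 bases. Over the 854 coding bases ahead of the shared part, UGT1A8 and UGT1A10 were 94.0% identical.

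Among the SULT1A genes, SULT1A3 and SULT1A4 are closer still. SULT1A3 and SULT1A4 did not differ at any of 888 coding bases, nor at any of the 300 promoter bases in the RefSeq table, whereas SULT1A3 differed from SULT1A1 at 49 coding bases. Coding bases 208 to 267 are shown. Among 60-base stretches that cross no exon boundary, SULT1A3 and SULT1A1 differ in none more than in this one, with capitals for a base that differs from SULT1A3:

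SULT1A3: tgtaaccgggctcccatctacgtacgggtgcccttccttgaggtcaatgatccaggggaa

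SULT1A4: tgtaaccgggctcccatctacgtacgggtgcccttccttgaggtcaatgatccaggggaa

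SULT1A1: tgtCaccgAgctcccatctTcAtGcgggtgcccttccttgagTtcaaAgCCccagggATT

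In GRCh38 these lie at chr16:30201040-30201099 (plus strand) for SULT1A3, chr16:29461697-29461756 (plus strand) for SULT1A4 and chr16:28608485-28608544 (minus strand) for SULT1A1, which differs from SULT1A3 at 12 of the 60 bases. A read from within the coding sequence of SULT1A3 thus carries nothing that separates it from SULT1A4.

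How much of each gene is its own was measured as the share of 50-base windows of its transcripts that occur in no other gene's transcript. That share was 1.37% for SULT1A4, 18.6% for the abundant identifier of SULT1A3 and 0.930% for its other identifier. It was 23.1% for UGT1A10, 27.2% for UGT1A8, 32.4% for UGT1A9 and 27.5% for UGT1A4. The shares of UGT1A1, UGT1A6 and UGT1A7 lay between 50.6% and 59.1%. GSTP1, MGST2, GSTA4 and GSTO2 had only windows of their own (100%), and SULT1A1 had 85.1%. Levels of UGT1A genes and of SULT1A3 and SULT1A4 are therefore uncertain as to which copy the reads came from.

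The glutathione transferases made up most of the conjugation transcripts. Cytosolic GSTs held 56.5% to 61.8% of the members' summed FPKM in the 4 libraries, and the 3 MGST genes 22.8% to 29.2%. UGT1A genes held 7.18% to 8.57%, SULT1 genes 1.08% to 1.76% and SULT2 genes 0.825% to 1.098%. UGT2 genes held at most 0.0946%. Of the 50 members, 23 were at 1 FPKM or more in each library of the precursor table and 17 in each library of the antimir table.

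GSTP1, the pi-class enzyme that joins glutathione to electrophiles, was the most abundant member in all 4 libraries. Its level was 1313 FPKM after the precursor and 1108 after its control, and 750.45 after the antimir and 853 after its control. Among 18977 protein-coding genes it ranked between 122 and 134. It lies at chromosome 11, 67351066 to 67354131, in hg19, and MGST1 at chromosome 12, 16500076 to 16763528. GSTO1, an omega-class enzyme, ranked 3 among the members in each library, with 148 and 137 FPKM in the precursor table and 111 and 113 in the antimir table. GSTK1, the kappa-class form of mitochondria and peroxisomes, was at 118 and 109.5 and at 77.2 and 81.1. In each pair, with all isoforms summed, the treated library of GSTP1 and its control stood further apart than those of GSTO1 and GSTK1. Without isoforms under 300 bases, on the log2 scale used below, this no longer held in the antimir pair and was slight in the precursor pair. The precursor and antimir differences were then 0.095 and -0.026 for GSTP1, 0.084 and 0.023 for GSTO1, and 0.081 and -0.033 for GSTK1.

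GSTT1, a theta-class enzyme acting on small halogenated compounds, was at 93.0 FPKM (precursor) and 89.2 (its control), and at 62.7 (antimir) and 56.0 (its control). GSTO2, the second omega-class gene, was at 28.0 and 28.8, and at 25.5 and 25.9. GSTZ1, which also serves tyrosine breakdown, was at 17.0 and 14.8, and at 10.8 and 11.05. GSTA4, the alpha-class enzyme for lipid aldehydes such as hydroxynonenal, was the lowest of the clearly detected GSTs at 10.4 and 8.73, and at 6.87 and 5.61. GSTM4 was at 1.65 and 2.40, and at 0.734 and 0.874. The mu class and the rest of the alpha class were otherwise low, and none of these genes reached 1 FPKM in any library. GSTA1 was at most at 0.662, GSTA2 at 0.234, GSTA3 at 0.130, GSTA5 at 0.0160, GSTM1 at 0.383, GSTM2 at 0.173, GSTM3 at 0.330 and GSTM5 at 0.0332. GSTT2, of which 20.8% of windows are its own, was at most at 0.443.

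MGST1, a membrane-bound glutathione transferase and peroxidase, ranked 2 in every library. It was at 508 FPKM after the precursor and 558 after its control, and at 289.7 after the antimir and 276 after its control. MGST3 was at 84.2 and 74.9, and at 55.4 and 65.0. MGST2, known for making leukotriene C4 outside blood cells, was at 75.1 and 85.3, and at 62.7 and 51.6. MGST1 and MGST2 lay below the control in the precursor pair and above it in the antimir pair, and MGST3 did the opposite.

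Among glucuronosyltransferases, UGT1A10 led in all 4 libraries, followed by UGT1A6 and then UGT1A8. UGT1A10 was at 101 FPKM after the precursor and 92.1 after its control, and at 92.4 and 97.4 in the antimir pair. UGT1A6, which conjugates small planar phenols, was at 51.5 and 46.3, and at 28.6 and 26.4. UGT1A8 was at 29.1 and 27.5, and at 14.6 and 16.1. UGT1A10 held 52.3% and 52.1% of UGT1A FPKM in the precursor pair and 65.9% and 67.1% in the antimir pair, so its share differed between the tables far more than within either.

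UGT1A1, the bilirubin enzyme, was at 3.47 and 3.15 FPKM in the precursor pair, and at 3.55 and 4.19 in the antimir pair. UGT1A9 was at 3.91 and 3.65, and at 0.738 and 0.333. UGT1A7 was at 1.91 and 2.199, and at 0.278 and 0.537. UGT1A4 was at 1.56 and 1.48 in the precursor pair, was listed at 0 in the antimir library and was at 0.112 in its control. In the precursor pair all of it lay on ENST00000450233, annotated as a nonsense-mediated decay isoform. In the antimir control all of it lay on the protein-coding isoform. UGT1A3 and UGT1A5 were at most at 0.355 and 0.202 and were listed at 0 in both libraries of the antimir table. All 9 UGT2 genes, the main family for steroid glucuronides, were below 1 FPKM throughout. The highest was UGT2B7, the morphine enzyme of the liver, at 0.629 and 0.745 and at 0.594 and 0.621. UGT2B15 reached 0.625, UGT2A3 0.513, UGT2B10 0.215, UGT2B17 0.156, UGT2B11 0.131, UGT2A1 0.0651, UGT2B4 0.0313 and UGT2B28 0.00482.

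Of the sulfotransferases, SULT1A1, the general phenol form, was at 23.9 and 22.5 FPKM, and at 19.7 and 16.2 in the antimir pair. SULT2B1, which sulfates cholesterol and pregnenolone, was at 22.9 and 20.3, and at 17.4 and 18.9. SULT1A2 was at 4.64 and 4.54, and at 1.15 and 1.48. SULT1A3, the catecholamine form, was at 7.23 and 7.25 in the precursor pair and listed at 0 in both antimir-table libraries. SULT1A4, its copy, was at 7.62 and 7.97, at 0.0534 after the antimir and listed at 0 in that table's control. Both copies were thus present in one table and all but missing in the other, for treated and control library alike. Whether both tables were made with the same annotation and settings is not given in the sources used here, and the part of that in these values and in the isoform differences between tables was not tested. The second SULT1A3 identifier was at 0.887 and 0.134, then listed at 0 after the antimir and at 0.103 after its control. SULT1B1, the thyroid hormone form of the gut, was at most at 0.237, SULT1C2 at 0.605, SULT1C3 at 0.354, SULT1C4 at 0.0364, SULT1E1, the estrogen form, at 0.124 and SULT2A1, the DHEA form of liver and adrenal, at 0.0141.

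**Figure D1:**
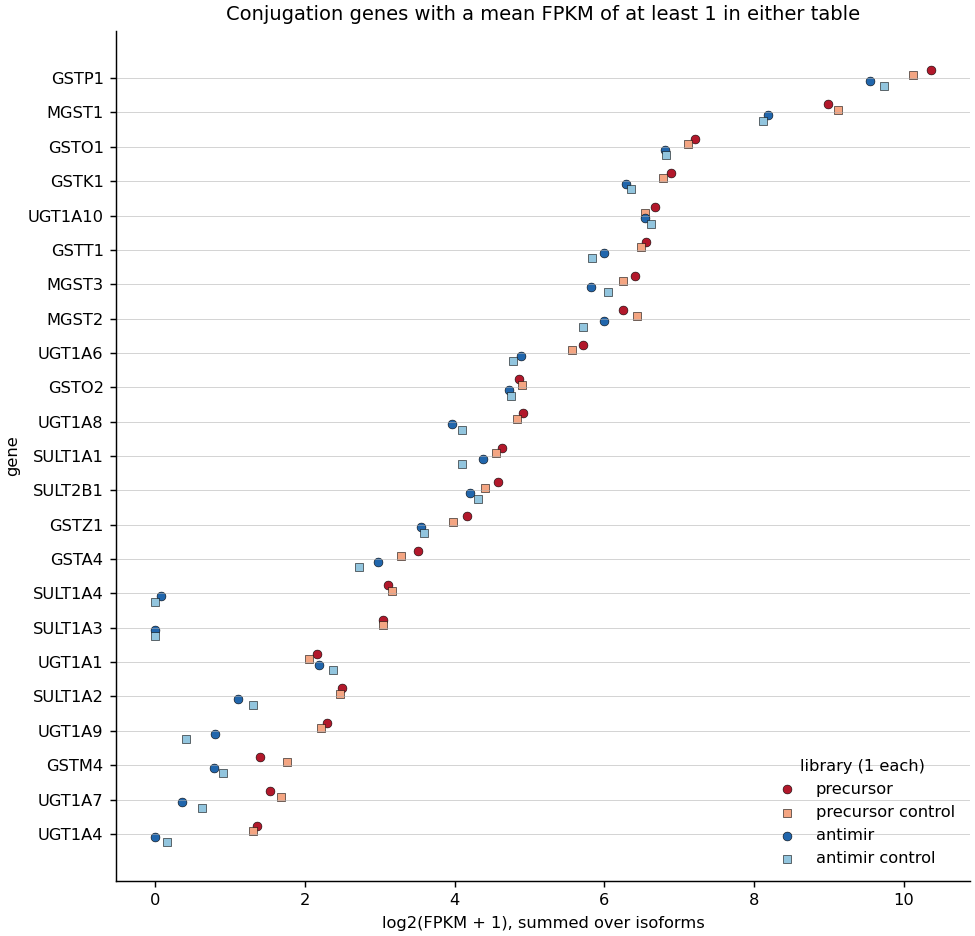
Level of each of the 23 members with a mean of at least 1 FPKM in either table, as log2(FPKM + 1) on the horizontal axis, with 1 point per library (circles: treated, squares: control). GSTP1 and MGST1 lie highest in all 4 libraries, and 21 of the 23 members, all but UGT1A10 and UGT1A1, lie lower in both libraries of the antimir table than in both of the precursor table.

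The order of the members was therefore much the same in all libraries at the top and differed below. GSTP1, MGST1 and GSTO1 held ranks 1, 2 and 3 in each library. UGT1A10 held rank 5 in the precursor pair and 4 in the antimir pair, and SULT1A4 held rank 16 in the precursor control and, at 0, shared the last rank (39) in the antimir control. With 1 library a group there is no spread to say which neighbours in this order differ.

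The control libraries of the 2 tables, treated as normalised separately, were set side by side against sequence uniqueness. Over all 15214 genes past the filter with a value in both controls, the median ratio of the precursor control to the antimir control was 1.29. The 10 members with at least 90% of windows of their own had ratios between 1.07 (SULT2B1) and 2.02 (MGST1), with a median of 1.32. Of the 12 members with fewer, SULT1A3 and SULT1A4 gave no ratio because the antimir control was listed at 0, and the other ratios ran from 0.752 (UGT1A1) to 13.2 (UGT1A4). The UGT1A4 ratio sets different isoforms of the gene against each other. UGT1A9 stood at 10.97, UGT1A7 at 4.09, SULT1A2 at 3.07 and GSTM4 at 2.75, while UGT1A10 was at 0.946. The part of shared sequence in these gaps was not tested.

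**Figure D2:**
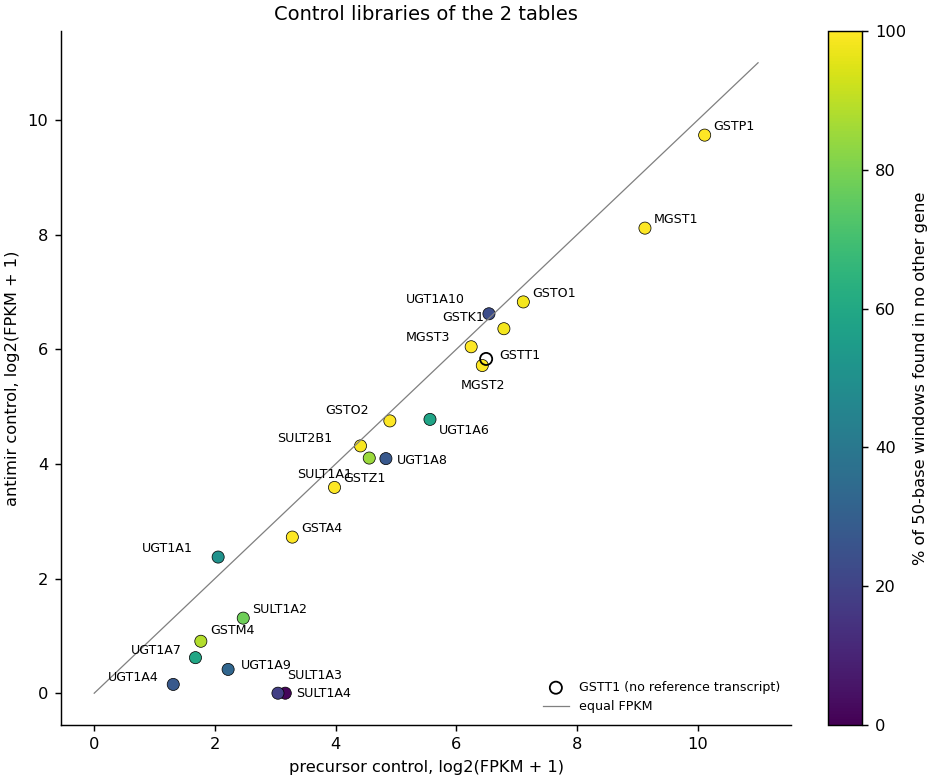
Level of 23 members in the precursor control (horizontal) and in the antimir control (vertical), both as log2(FPKM + 1), 1 point per gene. Colour gives the percent of 50-base windows found in no other gene, and GSTT1, with no reference transcript, is an open circle. The line marks equal FPKM, and the tables are treated as normalised separately. The 10 members with 90% or more lie along the line within a ratio of 1.07 to 2.02, and SULT1A3 and SULT1A4 lie at 0 on the vertical axis.

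The first comparison asks how raising miR-23b relates to these genes. Differences are given on the log2(FPKM + 1) scale, treated minus control, less the median over all genes with a mean of at least 1 FPKM in the pair, a scale that understates the change of low genes. No member past the filter was past 1.5-fold in the precursor library. Past the filter were 23 members, 16 above 0 and 7 below, with a median of 0.06. Below the filter, the second SULT1A3 identifier (0.887 against 0.134 FPKM) differed by 0.71. Over all genes 6.68% of 16982 were past 1.5-fold in either direction, and 1.15% of 11346 protein-coding genes, and the median over all genes is 0 by construction. Against the protein-coding share, a count of 0 among 23 genes is near the background. All 13 colon epithelium markers past the filter were above 0 as well (median 0.16; TFF3, a goblet cell peptide, was past 1.5-fold at 0.60), and the part of this in the members' signs was not tested.

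GSTP1 had the highest difference (0.22), followed by GSTA4 (0.21), GSTZ1 (0.16), MGST3 (0.14) and SULT2B1 (0.14). GSTM4 had the lowest (-0.38), at levels of 1.65 against 2.40 FPKM, followed by MGST2 (-0.20), UGT1A7 (-0.16) and MGST1 (-0.16). The middle 50% of all genes lay between -0.12 and 0.12, so these members and UGT1A6 (0.13) lay outside it and the rest inside. Of the 7 UGT1A genes measured, 6 were above 0, from 0.02 (UGT1A4) to 0.13 (UGT1A6), and these genes share their last exons. The UGT1A4 value rests on its nonsense-mediated decay isoform alone.

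The second comparison asks the same of blocking miR-23b. No member past the filter was past 1.5-fold in the antimir library either. Of 17 members past the filter, 9 were above 0 and 8 below, with a median of 0.0020. Over all genes 7.97% of 14190 were past 1.5-fold, and 2.63% of 11060 protein-coding genes, so again a count of 0 is near the background. Of 11 colon epithelium markers past the filter, 3 were above 0 and 8 below (median -0.09). MGST2 had the highest difference (0.31, at 62.7 against 51.6 FPKM), followed by SULT1A1 (0.31), GSTA4 (0.29), GSTT1 (0.20) and UGT1A6 (0.15). MGST3 had the lowest (-0.19), followed by SULT1A2 (-0.17), UGT1A1 (-0.15) and GSTP1 (-0.15). The middle 50% of all genes lay between -0.14 and 0.15.

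The 2 comparisons share no library, and 17 members passed the filter in both. For 8 of them the difference was above 0 with the precursor and below 0 with the antimir (GSTK1, GSTP1, MGST3, SULT1A2, SULT2B1, UGT1A1, UGT1A8 and UGT1A10), and for 3 it was the reverse (GSTO2, MGST1 and MGST2). GSTA4, GSTO1, GSTT1, GSTZ1, SULT1A1 and UGT1A6 were above 0 in both. None of these differences reached 1.5-fold, so the signs describe these 4 libraries only. The share of all genes with opposite signs in the 2 comparisons is not given here, so these counts cannot be set against a background. Several signs depend on the processing: without centring, 3 of the 17 antimir signs turned (GSTO1, GSTO2 and GSTZ1, each slightly below the control in FPKM), and with the most abundant isoform only, 8 of 22 precursor and 4 of 16 antimir signs turned. The precursor sign of MGST1 turned without isoforms under 300 bases.

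**Figure D3:**
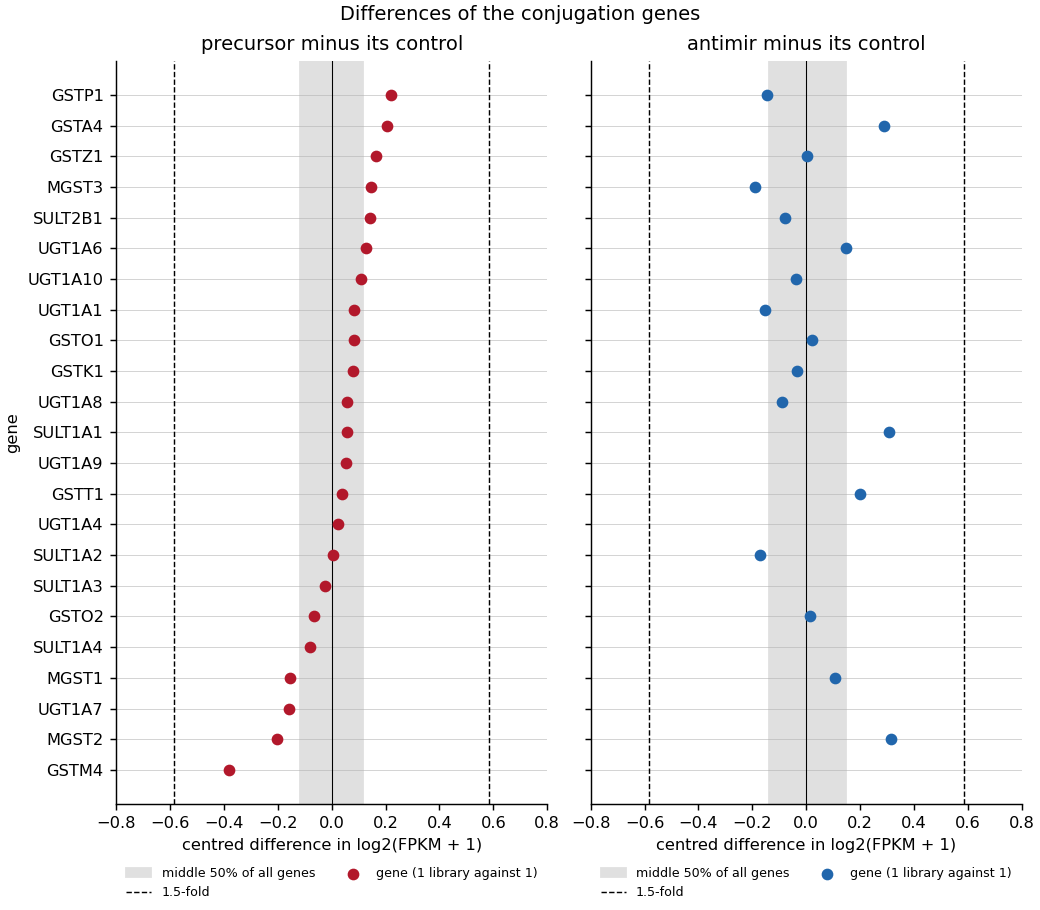
Centred difference in log2(FPKM + 1) between the treated library and its control for each member, precursor on the left (23 genes) and antimir on the right (17 genes past the filter), with the middle 50% of all genes shaded and 1.5-fold dashed. No point crosses a dashed line; GSTM4 is the farthest at -0.38.

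Other enzyme families of drug handling are given for comparison, with no test between them. With the precursor, 15 aldehyde dehydrogenases had a median of 0.05 and none past 1.5-fold, 24 ABC transporters a median of 0.02 and none, and 10 aldo-keto reductases a median of -0.01 and 1. With the antimir, the medians were 0.0057 over 15 aldehyde dehydrogenases, -0.02 over 24 ABC transporters and 0.18 over 8 aldo-keto reductases, and no gene of the 3 families was past 1.5-fold.

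Isoforms within a gene differed more than the sums, and very short isoforms held a sizeable part of GSTP1 and MGST1. GSTP1 isoform ENST00000495996, 221 bases long in GENCODE 29, was at 483 FPKM after the precursor and 343 after its control, and at 31.3 after the antimir and 101 after its control. It held 36.8% and 31.0% of GSTP1 FPKM in the precursor pair, and 4.17% and 11.9% in the antimir pair. Without isoforms under 300 bases, GSTP1 was still the most abundant member at 829 and 765 and at 719 and 752, and its differences were 0.09 and -0.03 in place of 0.22 and -0.15. MGST1 isoform ENST00000538885, 202 bases long, was at 162 and 208, and at 22.5 and 18.6. The 3 short isoforms of MGST1 held 59.7% and 63.9% of its FPKM in the precursor pair and 43.7% and 39.5% in the antimir pair. Without them MGST1 was at 205 and 201 and at 163 and 167, with differences of 0.0022 and 0.0043 in place of -0.16 and 0.11. The rest of MGST1 thus stood at almost equal levels in treated library and control of both pairs.

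In GSTP1 the leading isoform was ENST00000464930, an identifier not matched in GENCODE 29, with 564 and 512 FPKM in the precursor pair and 498 and 511 in the antimir pair. It held 43.0% and 46.2% of GSTP1 FPKM in the precursor pair, and 66.4% and 59.95% in the antimir pair. ENST00000398606, at 961 bases the longest of the protein-coding isoforms of GSTP1 with 2 FPKM or more, held between 0.597% and 2.56%. GSTK1 was split over 3 isoforms in the precursor pair, where ENST00000358406 held 36.4% and 42.5%, while in the antimir pair this isoform held 93.5% and 93.0%. GSTO1 isoform ENST00000470554, a processed transcript, was at 35.3 and 29.4 FPKM in the precursor pair and listed at 0 in both libraries of the antimir table. In MGST2, ENST00000265498 held 25.2% and 19.3% in the precursor pair but 51.8% and 59.6% in the antimir pair.

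The difference between tables was the larger one for isoforms generally. The share of a gene's FPKM that sat on other isoforms had a median of 6.43% between the precursor library and its control over 16 members with at least 2 isoforms, and 7.77% between the antimir library and its control. Between the 2 control libraries it was 30.04%. Over 11017 genes of the same kind the medians were 8.47%, 11.6% and 24.4%. The leading isoform was the same for 14 of 16 members within either pair and for 10 of 16 between the controls, beside 82.2%, 81.0% and 64.0% of all genes. GSTZ1 moved most between the controls (71.3%), followed by GSTK1 (52.4%), and SULT2B1 and UGT1A1 moved least.

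**Figure D4:**
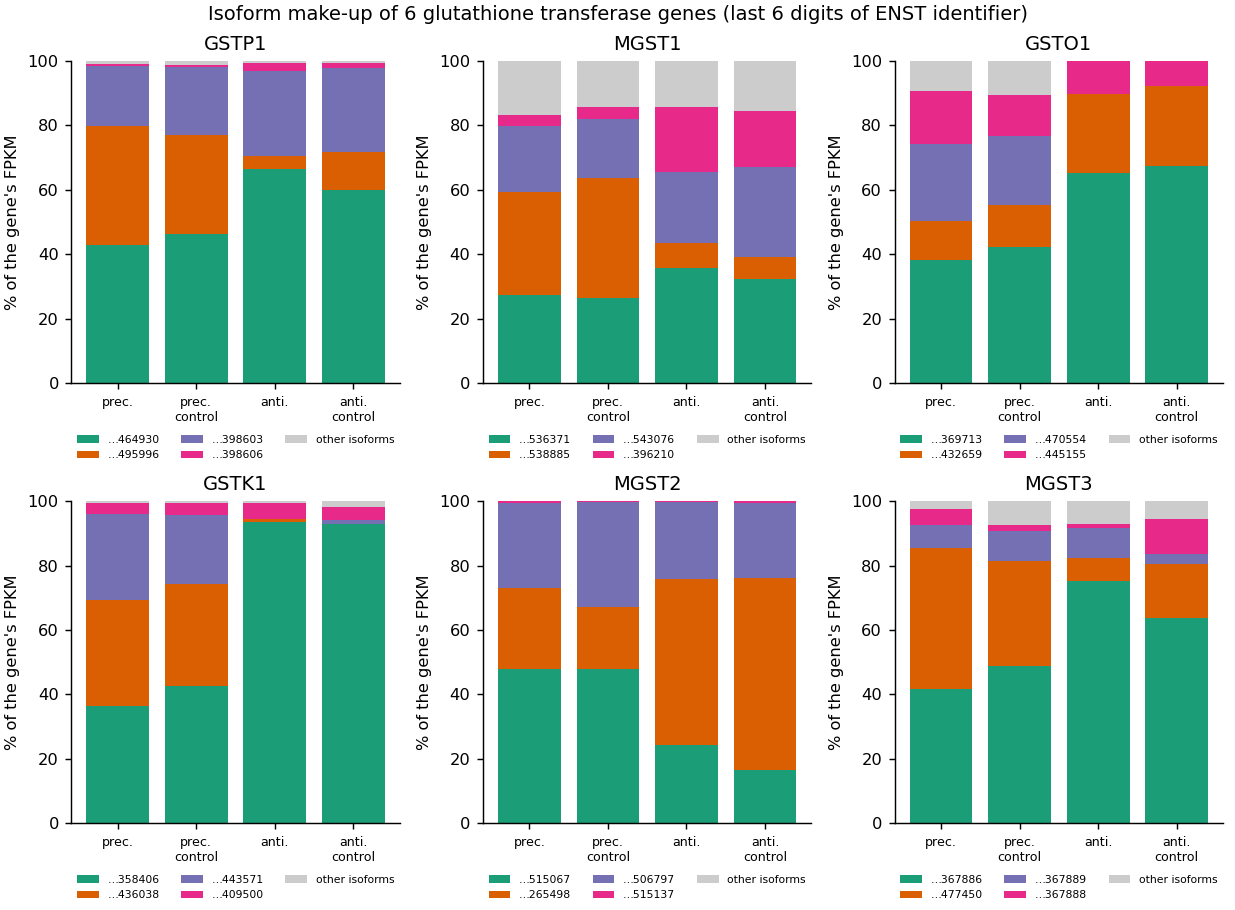
Share of each gene's FPKM (vertical, percent) held by its 4 most abundant isoforms and by the others, in the 4 libraries, for GSTP1, MGST1, GSTO1, GSTK1, MGST2 and MGST3; isoforms carry the last digits of their identifier. The 2 bars of a pair look alike, and the pairs differ, as in GSTK1, where 1 isoform holds 93.5% and 93.0% in the antimir pair against 36.4% and 42.5% in the precursor pair.

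The authors' deposited table of the precursor comparison called 22 of 125 tested member isoforms (17.6%) significant, beside 13.6% of 78175 transcripts over all genes. Of the same 125 tested member isoforms, the authors' deposited table called 15 higher in the precursor library and 7 lower. Over all 78175 transcripts it called 5402 (6.91%) higher and 5207 (6.66%) lower. These calls set 1 library against 1 and so compare libraries, not conditions. In the authors' deposited table of the antimir comparison, 0 of 83 tested member isoforms were called, beside 0.414% of 62029. Calls fell on 13 of the 32 member genes with a tested isoform. The share of all genes with a called isoform is not given here, so this count and its split by direction have no background. By the authors' deposited table, GSTP1, GSTT1, GSTZ1, MGST3 and SULT1A1 each had isoforms called in both directions, GSTA4, GSTK1, GSTO1, MGST1, SULT1A2 and UGT1A10 only higher ones, and MGST2 and SULT1A3 only lower ones. In that deposited table of the authors, the called isoforms of GSTA4, MGST1 and SULT1A2 were at 0.813, 0.848 and 0.398 FPKM, each against a listed 0 in the control. That of SULT1A3 was at 0.280 against 0.942. The summed level of MGST1 was lower after the precursor than after its control.

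Of the 22 calls in the authors' deposited table, 16 had at least 1 FPKM in a library, and 7 had a value of 0 in one library. The largest by level was GSTP1 ENST00000495996 named above, with q = 0.0034 in the authors' deposited table. GSTK1 ENST00000443571 was at 31.5 against 23.4 FPKM and GSTO1 ENST00000445155 at 24.5 against 17.2 in the authors' deposited table. In that deposited table of the authors, MGST3 ENST00000477450, a processed transcript, was at 36.9 against 24.4. MGST2 ENST00000506797 was the largest one called lower, at 19.9 against 27.6 FPKM in the authors' deposited table. GSTZ1 had calls in opposite directions in the authors' deposited table: ENST00000557639 was at 3.36 against 1.69 and ENST00000349555 at 2.198 against 0.327, while ENST00000554279 was at 1.99 against 4.14. GSTT1 likewise had ENST00000248935 at 4.40 against 8.12 and ENST00000417831 at 3.79 against 1.24 in the authors' deposited table. UGT1A10 ENST00000373445, a minor isoform, was at 3.58 against 2.25 in the authors' deposited table. The gene sums of GSTZ1 and GSTT1 differed by 0.16 and 0.04.

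Because the study was about targets of miR-23b, the members were searched for its seed match. A microRNA pairs with mRNA mainly through its seed, bases 2 to 8, in capitals here as given by RefSeq on GRCh38.p14 (chr9:95085265-95085287, plus strand):

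hsa-miR-23b-3p: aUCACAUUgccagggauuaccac

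The complementary letters AATGTGA occurred in the longest 3′ UTR of 4 members, MGST1, UGT1A7, UGT2B10 and UGT2B15. The sites of the 2 that passed the filter of 1 FPKM are shown, with the match in capitals:

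MGST1: acaattggggaAATGTGAacaatga

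UGT1A7: ctagtataaagAATGTGAagtttgt

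They lie in GRCh38 at chr12:16376679-16376703 and chr2:233691057-233691081, both on the plus strand. Of the members past the filter with a 3′ UTR in GENCODE 29, 2 of 22 (9.09%) held a site in the precursor table, beside 20.5% of 11248 genes. Their 3′ UTRs were shorter, with a median of 627 bases against 1330.5. Among 16 such members of the antimir comparison, 1 held a site, beside 20.7% of 10980 genes.

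The isoforms that carry the site were scarce. In MGST1 the site lies in the 3′ UTR of ENST00000535309 alone, which was at 0.0906 FPKM after the precursor and 0.0950 after its control and was listed at 0 in both libraries of the antimir table. All isoforms with the letters anywhere held at most 0.0193% of MGST1 FPKM. In UGT1A7 the site lies in ENST00000485022, at 0.131 and 0.159 and at 0.214 and 0.0558 FPKM. UGT2B15, whose only isoform has the site, was at 0.366 and 0.625, and at 0.283 and 0.193, all below the filter. Among isoforms matched in GENCODE 29, no other member above 10 FPKM held the letters except GSTO2, where ENST00000498052 carries the letters outside an annotated 3′ UTR and held 3.81% to 5.22% of the gene.

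Promoters were found in the RefSeq table for 40 of the 49 symbols, with 44 start sites. GSTP1, the most abundant member, is printed, from 250 bases before to 50 after its start (GRCh38.p14, chr11:67583562-67583861, plus strand), with the matches in capitals:

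GSTP1: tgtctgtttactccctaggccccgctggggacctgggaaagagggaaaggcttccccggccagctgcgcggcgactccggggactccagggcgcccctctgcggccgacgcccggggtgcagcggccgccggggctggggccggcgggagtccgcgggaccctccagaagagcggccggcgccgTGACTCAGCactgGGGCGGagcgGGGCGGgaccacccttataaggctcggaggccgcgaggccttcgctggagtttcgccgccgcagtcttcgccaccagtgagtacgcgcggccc

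Both strands were searched for 5 motifs. The letters TGACNNNGC, the core of the antioxidant response element bound by NFE2L2, begin at base -66 of GSTP1, where TGACTCA, the AP-1 site, overlaps them, and GGGCGG, the GC box, begins at bases -53 and -43. The antioxidant core was in 11 of the 44 member promoters (25%) and in 13.3% of all 35116. It was in those of 5 of 18 genes past the filter (GSTA4, GSTO1, GSTP1, MGST1 and UGT1A6) and of 6 of 22 below it, so the groups held it about equally often. The AP-1 site was in GSTP1 alone (2.27%, beside 4.95%). The GC box was in 34.1% beside 44.95%, and in 11 of 18 genes past the filter against 3 of 22 below. The letters GCGTG, the core bound by the dioxin receptor AHR, were in 31.8% beside 36.5%, in 10 of 18 genes past the filter and 4 of 22 below. GTTAAT, a half-site of the liver and gut factor HNF1, was in 22.7% beside 6.88%, in 3 of 18 genes and 6 of 22. Overlapping promoter windows of MGST1 hold the same GTTAAT matches, and GSTA1 and GSTA2 both hold theirs at base -180. The promoter shares thus count some stretches more than once. A match describes letters in this window and no binding was measured.

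The pathways that feed and follow conjugation were read from lists of other genes. Of 24 glutathione supply genes past the filter, 0 were past 1.5-fold with the precursor and 3 were lower with the antimir, with medians of 0.0043 and 0.06, beside the 6.68% and 7.97% of all genes and the 1.15% and 2.63% of protein-coding genes past it in either direction. CHAC1, which breaks down glutathione inside the cell, was at 10.5 FPKM after the precursor and 10.1 after its control, and at 3.97 after the antimir and 10.1 after its control (-1.12). The authors' deposited table called its isoform ENST00000446533 lower in the antimir library (1.51 against 4.56 FPKM) and higher in the precursor library (4.28 against 2.99). SLC7A11, the cystine importer that supplies glutathione synthesis, was at 18.3 and 17.9, and at 12.2 and 19.8 (-0.62). OPLAH, which returns oxoproline to glutamate, was at 2.197 and 2.96, and at 0.932 and 2.06 (-0.63). These 3 genes were past 1.5-fold in the antimir pair and not in the precursor pair, and no glutathione transferase was past it in either.

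The most abundant genes of that list were peroxidases, which spend glutathione on peroxides. GPX2, the gut form, was at 4976 and 4914 FPKM, and at 3090.1 and 3369. GPX3, a secreted form, was at 1566.5 and 1043 (0.56, just inside 1.5-fold, but 0.59 and past it without centring), and at 209 and 177. The authors' deposited table called 2 of its isoforms higher in the precursor library, ENST00000519214 at 33.4 against 0.0728 and ENST00000458211 at 15.9 against 10.9. GPX1 was at 557 and 553, and at 334 and 356. GPX2 was thus above GSTP1 in every library.

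The lists of donor supply and conjugate cleavage for the other reactions held no gene past 1.5-fold, and their levels varied widely. Only the most abundant genes are given. Of the 22 genes listed for sulfate, 4 were below 1 FPKM in all 4 libraries, and 1 was listed at 0 throughout. Of 9 genes for UDP-glucuronic acid and glucuronide cleavage, none was past 1.5-fold in either comparison, and 8 were above 0 with the precursor and 4 with the antimir. UGP2, which makes UDP-glucose, was at 116 and 110.3 FPKM, and at 77.4 and 74.4. UGDH, which oxidises it to UDP-glucuronic acid, was at 93.3 and 87.9, and at 71.0 and 72.2. SLC35B1, listed here as a member of the carrier family SLC35, was at 66.5 and 72.0, and at 45.3 and 50.8. Of 18 genes for sulfate donor supply and sulfate ester cleavage, none was past 1.5-fold in either. PAPSS1, which makes the donor PAPS, was at 88.9 and 88.0, and at 69.5 and 64.9. SUMF2, a paralog of the sulfatase-activating enzyme, was at 139.6 and 120.4, and at 86.1 and 104. TST, a mitochondrial sulfur transferase, was at 75.3 and 72.0, and at 53.2 and 50.4.

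Related and other conjugating enzymes also showed few large differences. Of 7 related transferases outside the rule, 1 was higher with the precursor, CLIC3, a chloride channel protein with a GST-like fold, at 21.6 and 13.2 FPKM (0.65), and at 14.7 and 15.3 with the antimir (-0.02). The authors' deposited table called 2 of its isoforms higher in the precursor library, ENST00000494426 at 7.63 against 4.34 and ENST00000456673 at 5.64 against 2.46. CLIC1 led this list at 433 and 389.7, and at 352 and 366, followed by CLIC4 at 58.3 and 52.4, and at 43.9 and 50.3. UGT8, which makes galactosylceramide, was at 28.0 and 23.75, and at 21.3 and 20.7. Of 7 other conjugating enzymes none was past 1.5-fold in either comparison. HNMT, which methylates histamine, was at 79.0 and 93.1, and at 70.9 and 64.5. NNMT, which methylates nicotinamide, was at 66.3 and 68.6, and at 55.7 and 59.0.

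Phase 1 enzymes introduce or expose the groups that are then conjugated, and 21 of 43 listed passed the filter in each comparison with none past 1.5-fold. NQO1, the quinone reductase, was at 746 and 729 FPKM, and at 679.5 and 668. CYB5A, the cytochrome b5 that serves P450 enzymes, was at 248.6 and 229, and at 171 and 189. CYP3A5, the drug-oxidising P450 with the highest level, was at 114 and 147 (-0.38), and at 119 and 103 (0.25). The authors' deposited table called 6 CYP3A5 isoforms lower in the precursor library and 0 higher, beside 6.66% of all 78175 transcripts called lower. In the antimir comparison it called 0. How many CYP3A5 isoforms were tested is not given here, so the count has no share. CYP3A5 was the one of these 3 that lay lower with the precursor and higher with the antimir.

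Export of conjugates was led by ABCC3, a basolateral pump for glucuronides, at 287 and 297 FPKM, and at 165 and 186. ABCC4 was at 41.1 and 37.1, and at 27.8 and 29.7. Of 9 export genes past the filter, SLCO2B1, an uptake carrier for sulfate conjugates such as estrone sulfate, was past 1.5-fold in both comparisons, just lower with the precursor (1.70 against 2.99 FPKM, -0.59, but -0.56 and so inside it without centring) and higher with the antimir (3.24 against 1.06, 1.08). No SLCO2B1 isoform was called in the authors' deposited table of either comparison.

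Of the regulators of these genes, 25 passed the filter with the precursor and 26 with the antimir, and none was past 1.5-fold in either. NFE2L2, the activator at antioxidant response elements, was at 121 and 123 FPKM, and at 82.4 and 86.4. PPARG, a lipid-sensing receptor, was at 125 and 115, and at 77.1 and 77.8. AHR, the dioxin receptor, was at 81.6 and 70.3, and at 57.3 and 59.7. Of the regulators, 17 of 25 lay above 0 with the precursor (median 0.09) and 8 of 26 with the antimir (median -0.06).

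**Figure D5:**
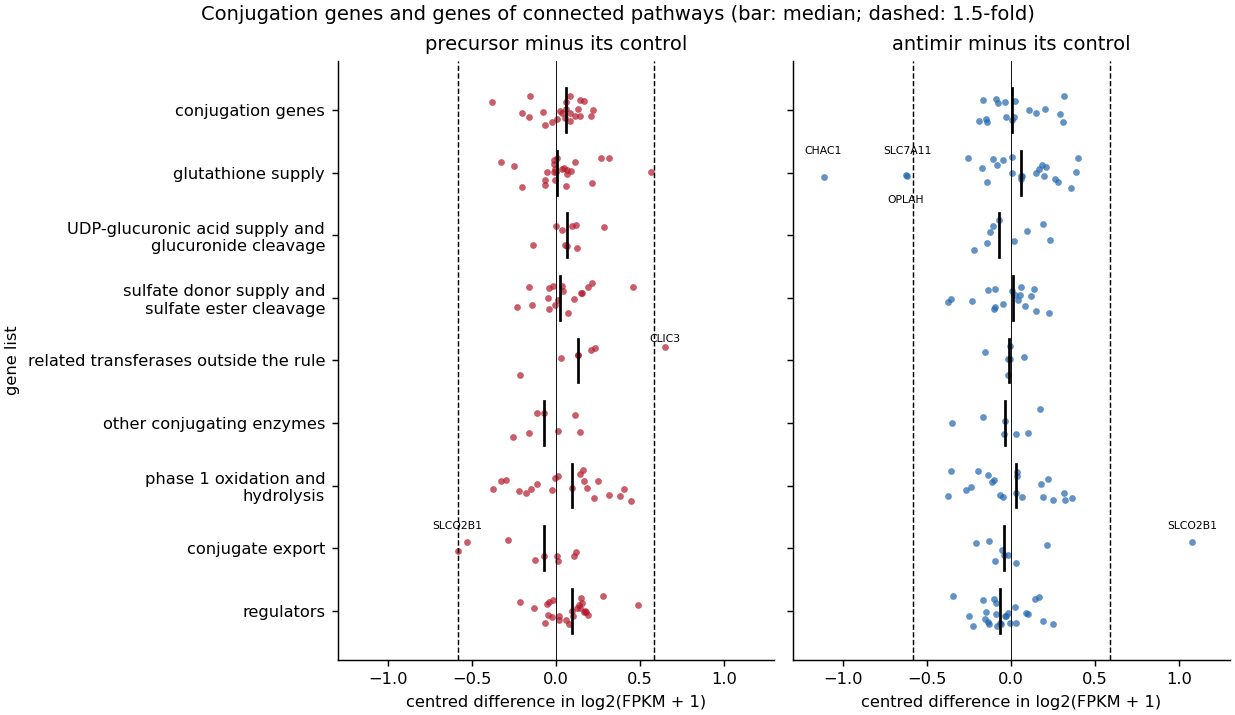
Centred difference in log2(FPKM + 1), treated minus control, for the conjugation genes and 8 lists of connected genes, 1 point per gene past the filter, with the median as a bar and 1.5-fold dashed; points are spread vertically for visibility only. The medians lie between -0.07 and 0.13 with the precursor and between -0.08 and 0.06 with the antimir, and the genes past 1.5-fold are CLIC3, SLCO2B1, CHAC1, SLC7A11 and OPLAH.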

How the data were processed

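RNA of 4 HT29 libraries had been sequenced. The submitters' processing notes name bcl2fastq 1.8.3, TopHat2 2.0.11, Cufflinks 2.2.0, Cuffdiff and the build hg19; the annotation and settings are not given in the sources used here. From these came 2 tables that the authors deposited, of FPKM per isoform, 1 for each comparison, with the authors' p-value and q-value per isoform, per the file headers; they are treated as normalised separately. The deposited log2 fold change, control over treated, was used only to check the direction of the authors' calls. Depth could not be computed.

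For each gene, FPKM was summed over transcript entries that had not failed; no member entry had failed. Differences of log2(FPKM + 1) used genes with a mean of at least 1 FPKM and were centred on their median (0.02 for the precursor, -0.04 for the antimir). Past 1.5-fold is a count with no test, and called refers only to the significance calls in the authors' deposited tables. The scripts were tested on simulated data. Sequences and isoform types came from GENCODE 29 (255 of 290 isoforms matched) and RefSeq tables on GRCh38, joined by identifier or symbol. Python 3.11.15, pandas 2.3.3 and numpy 2.4.6 were used.

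Members and lists were chosen with earlier results of these data known. Every member with a mean of at least 1 FPKM in either table is named with its values, lower ones with their highest value, and from each list the 3 most abundant genes and any past 1.5-fold. Some genes that this rule names are not reported here. Alternatives changed the pseudocount, the filter, the isoforms summed, failed entries and the centring.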

Additional observations from a re-analysis of the deposited data

How the results depend on the processing

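Each group held 1 library, so no library could be left out and no spread between replicates was available. No paired analysis was possible because each group holds 1 library. The count of 0 members past 1.5-fold was found in both comparisons with a pseudocount of 0.1, at a mean of at least 5 FPKM, with failed isoforms kept, without centring, with centring on protein-coding genes, and without isoforms under 300 bases, an alternative chosen after seeing the data. It became 1 with the precursor without a filter (the second SULT1A3 identifier, 0.887 against 0.134 FPKM, 0.73), with the most abundant isoform only (GSTZ1, 1.99 against 4.14, -0.81) and with protein-coding isoforms only (SULT1A3, 1.84 against 3.20, -0.60), the last chosen after seeing the data. It became 1 with the antimir with tested isoforms only (MGST3, 13.3 against 23.4 FPKM, -0.73) and with protein-coding isoforms only (MGST3, 5.88 against 9.95, -0.63). Protein-coding isoforms leave out 35 identifiers not matched in GENCODE 29, among them every isoform of GSTT1 and the leading isoforms of GSTP1 and MGST3. The members' median lay between 0.03 and 0.08 with the precursor and between -0.04 and 0.02 with the antimir over all alternatives, so its sign with the antimir depends on the setting. The number of members with a mean of at least 1 FPKM over the 4 libraries was 22 as reported, 22 with failed isoforms or whole-locus entries and 21 with the most abundant isoform only. Differences under 1.5-fold of single members moved most with the choice of isoforms, and the cause was not tested. Among the pathway genes, leaving out the centring, an alternative chosen after seeing the data, took GPX3 past 1.5-fold with the precursor (0.59) and SLCO2B1 inside it (-0.56).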
